A study of Mus musculus with 2 samples.

Results

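The genes described here are 10 that mark or direct blood stem and progenitor cells: the surface proteins Cd34, Cd48 and Slamf1, the ETS factors Spi1, Fli1 and Erg, and the transcription factors Runx1, Meis1, Hlf and Mecom. They were matched by symbol, through a GENCODE mouse annotation, to the gene identifiers of the deposited tables, and all 10 were found among 43346 mouse genes. The samples were 2 libraries of polyadenylated RNA longer than 200 nucleotides from the whole liver of C57BL/6J embryos at day 14, each from pooled male and female littermates. They form 1 group, replicate 1 and replicate 2, with no treatment, no altered allele and no second condition. Both libraries carry the same donor entry and separate litters are not stated, so the spread between them may be technical.

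Blood is formed chiefly in the liver of the mouse embryo at this stage, and rare stem cells expand there among a far larger number of red cell precursors. Runx1, Erg, Fli1 and Spi1 belong to a group of DNA-binding factors that act together on the enhancers of blood progenitors, while Meis1, Hlf and Mecom are known for keeping stem cells in an immature state. SLAM family receptors separate stem cells from their progeny in mouse bone marrow, where stem cells carry Slamf1 (CD150) and lack Cd48. None of these genes is exclusive to stem cells: Spi1 also directs macrophages and granulocytes, Cd48 is carried by most white blood cells, and Cd34, Erg, Fli1 and Mecom are also expressed in blood vessel endothelium.

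The deposited tables held 100477392 expected counts in replicate 1 and 154601605 in replicate 2. Values are given as TPM, a share of transcripts corrected for their length, which allow levels of different genes to be compared per length. The members took 0.0117% of the counts on mouse genes in replicate 1 and 0.0129% in replicate 2. In bulk tissue, fewer cells of a type and less RNA per cell cannot be told apart.

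Spi1 led the members and Mecom was lowest, with a 25.6-fold span of mean TPM between them. The median of the 10 members was 2.42 TPM in replicate 1 and 3.14 TPM in replicate 2, against 1.17 and 1.20 TPM over 21474 protein-coding genes. A level of at least 1 TPM in both libraries was reached by 9 of the 10 members, against 50.6% of protein-coding genes. Among protein-coding genes the members lay between the percentiles 84.1 (Spi1) and 45.8 (Mecom). The order by mean level was Spi1, Cd34, Meis1, Cd48, Fli1, Erg, Hlf, Runx1, Slamf1 and Mecom. The values of the libraries overlapped between Meis1 and Cd48 and between each pair of neighbours from Fli1 to Runx1, so that those neighbours were not separated.

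**Figure D1:**
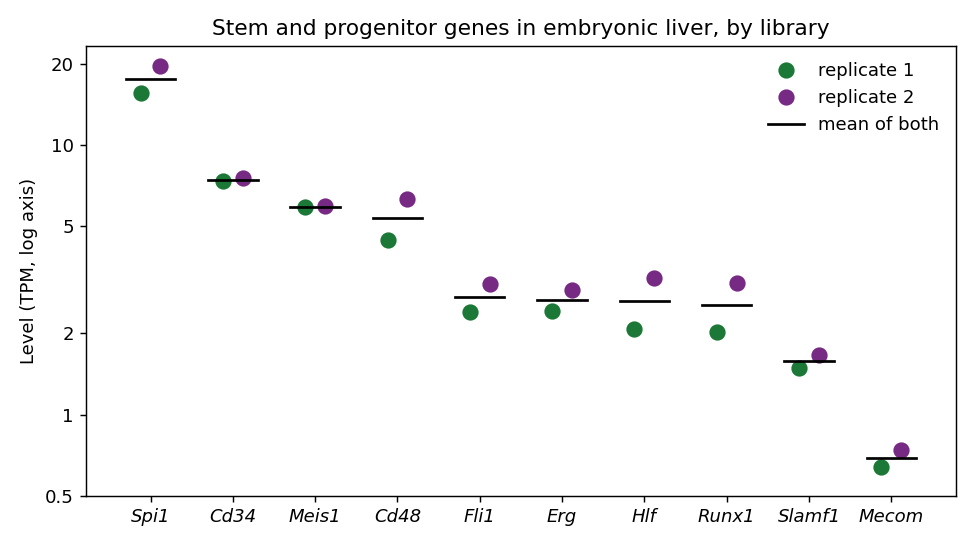
Level of each member in TPM on a log axis, with replicate 1 left and replicate 2 right and a bar at their mean. Spi1 stands at 15.6 TPM in replicate 1 and Mecom at 0.64 TPM, and Fli1, Erg, Hlf and Runx1 lie between 2.02 and 3.20 TPM.

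Of the surface proteins Cd34 was highest. Cd34, a sialomucin of early progenitors and endothelium, had 7.35 TPM in replicate 1 and 7.53 TPM in replicate 2 (7.44 ± 0.127 TPM, SD, n = 2), from 2088 and 3100 expected counts. Cd48 (chromosome 1, 171682009 to 171705258), the receptor that stem cells of mouse bone marrow lack, had 4.44 TPM in replicate 1 and 6.29 TPM in replicate 2, from 534 and 1089 counts. Slamf1 (chromosome 1, 171767127 to 171801184), the CD150 receptor, had 1.49 TPM in replicate 1 and 1.67 TPM in replicate 2, from 480 and 764 counts. Cd34 and Slamf1 were close in both libraries, whereas the values of Cd48 lay further apart. Cd48 exceeded Fli1, the next gene in the order, 1.84-fold in replicate 1 and 2.06-fold in replicate 2.

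Cd34 (chromosome 1, 194938819 to 194961279, GRCm38, forward strand) was present as both of its known protein forms in near equal amounts. Cd34-202, which encodes 325 residues and ends in a short cytoplasmic tail, held 50.7% of the gene's TPM in replicate 1 and 57.4% in replicate 2. Cd34-201, which encodes 382 residues with the full tail, held 48.9% and 42.2%. The forms part at the last exon, where 2 acceptor sites lie 156 bases apart. The joined coding sequences are shown because they carry this difference: 15 bases before the junction stand in lower case, and capitals mark the coding bases after it, up to and including the stop codon (GENCODE M21 transcripts, chr1:194959936-194960121 for Cd34-201 and chr1:194959780-194959794 for Cd34-202).
Cd34-201: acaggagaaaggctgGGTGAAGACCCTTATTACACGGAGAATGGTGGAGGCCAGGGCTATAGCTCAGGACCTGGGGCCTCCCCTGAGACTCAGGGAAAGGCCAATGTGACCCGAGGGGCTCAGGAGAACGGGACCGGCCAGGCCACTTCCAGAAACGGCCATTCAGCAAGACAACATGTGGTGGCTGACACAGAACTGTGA
Cd34-202: acaggagaaaggctgGAGCTGGAACCTTGA
After the shared junction Cd34-201 reads on for 61 codons and Cd34-202 stops after 4. Spliced reads, deposited for the same group in a separate table on mm9, were 158 on the Cd34-202 junction and 149 on the Cd34-201 junction. That put 51.5% of the reads at the shared donor on the short-tailed form (exact Clopper-Pearson 95% interval 45.7 to 57.2), and the interval holds equal use. The junction table names its replicates R1 and R2 without tying them to the libraries, and the share was 49.6% in R1 and 52.7% in R2.

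The other surface proteins had a dominant transcript each. Cd48-202 held 100% of Cd48 TPM in replicate 1 and 99.4% in replicate 2. Slamf1-201, which encodes 343 residues, held 93.3% and 95.2% of Slamf1 TPM. Cd48 also had 4 junctions that ENSEMBL release 65 does not list. They included 15 reads into and 5 and 8 reads out of an unlisted exon of 64 bases inside the third intron, where 353 reads skipped that exon.

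Among the ETS factors Spi1 stood far above Fli1 and Erg. Spi1 (PU.1, chromosome 2, 91082390 to 91115756), which directs myeloid fate, had 15.6 TPM in replicate 1 and 19.6 TPM in replicate 2 (17.6 ± 2.86 TPM), from 2378 and 4351 counts. Fli1 (chromosome 9, 32422204 to 32542861), a factor of blood and endothelium, had 2.41 TPM in replicate 1 and 3.05 TPM in replicate 2, from 926 and 1650 counts. Erg (chromosome 16, 95359169 to 95586593), its close relative, which is needed for stem cell maintenance in the mouse, had 2.42 TPM in replicate 1 and 2.89 TPM in replicate 2, from 604 and 1037 counts. All 3 had the lower TPM in replicate 1, and the ranges of Fli1 and Erg overlapped.

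Spi1 was spliced almost entirely from its main first exon. The first intron of Spi1-201, which encodes 272 residues, carried 797 reads, or 96.3% of those entering the second exon (95% interval 94.7 to 97.4). The estimates for an incomplete transcript, Spi1-204, were higher than its own junction: it held 29.2% of Spi1 TPM in replicate 1 and 29.3% in replicate 2, but 7.78% and 7.68% of its expected counts, and its own first intron had 10 reads, 1.21% of those entering the same exon (0.581 to 2.21). Spi1-204 is annotated as an incomplete model, and its short length raises its TPM for a given count. Its donor lies 14470 bases upstream of the main donor, and all junctions from that upstream donor together had 30 reads, 15 in R1 and 15 in R2. The Spi1 gene is known to be controlled by an enhancer upstream of its promoter.

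Fli1 was almost entirely Fli1-201, which encodes 452 residues and held 100% of its TPM in replicate 1 and 96.7% in replicate 2. Its 8 annotated introns had between 119 and 185 reads, an even profile along the gene.

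Erg mRNA started mainly at the promoter of Erg-203 and was split between forms with and without a short coding exon. The first intron of 49275 bases that starts at that promoter had 56 reads, and an unlisted intron of 48715 bases into the same exon had 14. An exon of 72 bases was included in 49.1% of cases, with 56 and 52 reads on its flanks and 56 reads over it, and the skipping junction, absent from ENSEMBL release 65, matches introns of Erg-202 and Erg-206 in GENCODE M21 by length. The next alternative exon, of 69 bases, was included in 87.1% of cases when set against the 10 reads that join the 72-base exon to the exon after it. Both exons keep the reading frame, and alternative use of exons in this part of ERG is known from human transcripts. Capitals mark each exon, with 15 coding bases of its neighbours in lower case (Erg-203, reverse strand, chr16:95377301-95377372 and chr16:95369995-95370063).
Erg 72-base exon: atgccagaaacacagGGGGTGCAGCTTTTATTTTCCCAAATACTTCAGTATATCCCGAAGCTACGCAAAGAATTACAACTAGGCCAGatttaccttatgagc
Erg 69-base exon: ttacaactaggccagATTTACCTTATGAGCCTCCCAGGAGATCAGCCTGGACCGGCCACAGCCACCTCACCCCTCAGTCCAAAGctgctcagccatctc
By TPM, Erg-202 held 39.3% of the gene in replicate 1 and 29.4% in replicate 2, and Erg-203 held 17.8% and 24.9%. A further 42.1% and 38.8% lay on transcripts that are not in GENCODE M21, so that no protein could be assigned to them. Of these 4 transcripts 2 were listed at 0 in both libraries, and the share lay on ENSMUST00000118113 (24.0% and 26.0%) and ENSMUST00000113846 (18.2% and 12.8%). In ENSEMBL release 65 both skip the 69-base exon by the junction with 10 reads, 15.2% of those at its donor. Introns 1 and 2 of ENSMUST00000113846 had 0 reads. These estimates were thus higher than the junctions of their models, and what produced the difference was not tested. The promoter window of the used start, from RefSeq on GRCm38.p6, is shown with its matches in capitals (reverse strand, chr16:95459299-95459598, 250 bases before to 50 after the start).
Erg promoter: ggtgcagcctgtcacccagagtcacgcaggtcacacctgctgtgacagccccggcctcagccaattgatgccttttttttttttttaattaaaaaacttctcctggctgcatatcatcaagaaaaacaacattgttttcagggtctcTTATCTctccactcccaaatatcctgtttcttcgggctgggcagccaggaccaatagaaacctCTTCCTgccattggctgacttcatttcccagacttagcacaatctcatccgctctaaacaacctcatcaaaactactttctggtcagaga
This window held the GATA motif AGATAA, as TTATCT, 103 bases upstream of the start, and the ETS motif AGGAAG, as CTTCCT, 40 bases upstream. Both strands were searched, and of 32851 promoter windows of the same length 11.2% held the GATA motif and 35.4% held the ETS motif. The other windows listed for Erg held neither.

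Runx1 was transcribed largely from its distal promoter. Runx1 (chromosome 16, 92601466 to 92826149), the DNA-binding subunit of core binding factor and a requirement for the first stem cells, had 2.02 TPM in replicate 1 and 3.08 TPM in replicate 2, from 1189 and 2348 counts. Runx1-201, made from the distal promoter P1 and encoding 465 residues, held 62.6% of its TPM in replicate 1 and 53.4% in replicate 2, or 74.7% and 71.0% of its counts. Runx1-202, which starts at the proximal promoter P2 and encodes 387 residues, held 14.3% and 12.9% of TPM. Runx1-203 (451 residues), whose model starts downstream of P2, held 6.90% and 19.1%. Runx1-207, annotated as a processed transcript, held 10.8% and 9.06%. The P1 junction into the first shared exon had 109 reads, 34 in R1 and 75 in R2, and the next intron, which transcripts from either side use, had 124 reads, 40 in R1 and 84 in R2. A start at P2 leaves no junction of its own at that exon, so these reads give no share for P2. P1 is known to be active in blood progenitors of the fetal liver, and the windows of both promoters are shown because the transcripts divide there (RefSeq on GRCm38.p6, reverse strand, chr16:92826025-92826324 for P1 and chr16:92697280-92697579 for P2, 250 bases before to 50 after the start, motif matches in capitals).
Runx1 P1: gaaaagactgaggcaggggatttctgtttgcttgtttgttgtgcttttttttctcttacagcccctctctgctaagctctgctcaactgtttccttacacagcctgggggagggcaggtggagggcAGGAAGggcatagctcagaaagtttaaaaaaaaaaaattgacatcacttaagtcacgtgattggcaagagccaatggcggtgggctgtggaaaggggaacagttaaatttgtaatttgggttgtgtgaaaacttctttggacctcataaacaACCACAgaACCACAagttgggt
Runx1 P2: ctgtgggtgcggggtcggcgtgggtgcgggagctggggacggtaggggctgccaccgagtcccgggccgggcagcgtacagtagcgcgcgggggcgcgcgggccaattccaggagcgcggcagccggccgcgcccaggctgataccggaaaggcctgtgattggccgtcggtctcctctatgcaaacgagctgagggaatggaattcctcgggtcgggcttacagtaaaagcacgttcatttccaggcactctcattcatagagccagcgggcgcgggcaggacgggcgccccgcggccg
The P1 window held the RUNX motif TGTGGT, as ACCACA, at 28 and 36 bases after the start, and the ETS motif AGGAAG 124 bases before it, while the P2 window held none of the 3 motifs. Of the 32851 windows 16.8% held the RUNX motif. The windows also differed in base composition, with 45.0% G and C in P1 and 69.0% in P2, against a median of 52.7% over all windows. A match is a description of the letters and does not show binding.

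A coding exon of Runx1 downstream of the DNA-binding domain was included in most but not all transcripts. This exon of 192 bases (64 codons) had 79 and 89 reads on its flanks and 48 reads over it, an inclusion of 63.6%, which was 62.0% in R1 and 64.3% in R2. At the shared donor the including junction took 62.2% of reads (95% interval 53.2 to 70.7). Capitals mark the exon (Runx1-201, reverse strand, chr16:92644154-92644345).
Runx1 192-base exon: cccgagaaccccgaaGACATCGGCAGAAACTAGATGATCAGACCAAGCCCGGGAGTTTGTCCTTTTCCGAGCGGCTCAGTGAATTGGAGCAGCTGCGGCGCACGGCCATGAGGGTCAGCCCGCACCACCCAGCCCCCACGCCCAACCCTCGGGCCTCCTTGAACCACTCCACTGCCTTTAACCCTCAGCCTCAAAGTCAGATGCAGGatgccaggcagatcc
An unlisted junction with 10 reads, 4 in R1 and 6 in R2, spanned 156776 bases from the P1 side to an exon beyond the first 2 shared exons. It took 7.87% of the reads at its donor (3.84 to 14.0).

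Meis1 had the third highest mean level, although it was not separated from Cd48. The leading transcript estimate of Meis1 had no junction reads of its own. Meis1 (chromosome 11, 18879817 to 19018985), a TALE homeodomain factor and partner of Hox and Pbx proteins, had 5.88 TPM in replicate 1 and 5.93 TPM in replicate 2 (5.91 ± 0.0354 TPM), from 1743 and 2550 counts. Meis1-203, annotated as a processed transcript without a coding region, held 62.0% of its TPM in replicate 1 and 63.3% in replicate 2, or 46.5% and 47.3% of its counts. Its own first intron, of 587 bases, was listed with no read, whereas the intron that coding transcripts use into the same exon had 122 reads. All junctions entering that exon together had 126 reads, 48 in R1 and 78 in R2, and those leaving it had 279, 118 in R1 and 161 in R2. Along the coding transcript Meis1-201 the 5 introns upstream of that exon had 67 to 191 reads, the 4 after it 141 to 277, and the last 3 had 383, 420 and 531. The unequal read numbers along the gene and the share given to Meis1-203 were thus seen together, and what produced either was not tested.

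Near the 3′ end of Meis1 an exon of 95 bases was included in 92.2% of cases, with 420 and 531 reads on its flanks and 40 reads over it. This exon distinguishes Meis1-201 (390 residues) from Meis1-209 (465 residues), whose proteins differ at their C-terminal ends. The junction with 383 reads lies 4 bases from an ENSEMBL release 65 intron of the same length, 1116 bases, which had no reads. An exon of 147 bases was skipped by 19 reads on an unlisted junction, which keeps the frame.

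Hlf and Mecom are known as stem cell factors, and Mecom had the lowest level of the 10 members while Hlf lay close to Erg and Runx1. Hlf (chromosome 11, 90336536 to 90390895), a PAR bZIP factor that is also present in other tissues, had 2.08 TPM in replicate 1 and 3.20 TPM in replicate 2, from 1146 and 1963 counts. Its counts and its TPM differed unequally between libraries because the authors' effective length of the gene, an average over the estimated transcripts, was 4446 bases in replicate 1 and 3413 in replicate 2. The coding transcript Hlf-201 (295 residues) held 68.4% of its TPM in replicate 1 and 45.9% in replicate 2. Of the noncoding models Hlf-203 held 16.3% and 30.0%, Hlf-202 13.9% and 9.38%, and Hlf-205 0% and 13.4%. Hlf-205 is 245 bases long, and its 0.43 TPM in replicate 2 rests on 2.18 counts. Of 56 reads into the second exon of Hlf-201, 19 came from the first exon of Hlf-201 and 37 from that of Hlf-202, a noncoding model. Introns 2 and 3 of Hlf-202 had 1 and 0 reads, while the 41807-base intron that Hlf-201 and Hlf-203 use there had 130. The 37 reads thus describe the first exon used and give no share for Hlf-202 as a whole.

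Mecom (chromosome 3, 29951296 to 30548008), which encodes the zinc finger proteins MDS1-EVI1 and EVI1 from separate starts, had 0.64 TPM in replicate 1 and 0.74 TPM in replicate 2, from 329 and 483 counts. Its leading transcript differed between libraries: Mecom-212 (1051 residues) held 31.2% of TPM in replicate 1 and 26.0% in replicate 2, and Mecom-203 (795 residues) held 26.6% and 52.1%. Mecom-206 held 18.8% and 0%, and Mecom-202 held 14.1% and 0%. Estimates of single transcripts were imprecise, above all in replicate 1. The deposited posterior SD of Mecom-203 was 23.7 counts beside its own 76.1 in replicate 1, and 22.1 beside 251 in replicate 2. Of the 329 and 483 counts of the whole gene it took 23.1% and 51.9%, a difference that these SDs alone do not span. What produced the change of leader was not tested. Junctions placed the starts more directly: the first intron of the EVI1-type transcripts, 2644 bases, had 8 reads, the first intron from the distal MDS1 start, 271108 bases, had 2, and the first introns drawn for Mecom-203 and Mecom-212 in ENSEMBL release 65 had none. A coding exon of 27 bases was included in 27.9% of cases, with 9 and 8 reads on its flanks and 22 over it, and R1 and R2 stood at 42.9% and 15.2%. Capitals mark it (Mecom-212, reverse strand, chr3:29972680-29972706).
Mecom 27-base exon: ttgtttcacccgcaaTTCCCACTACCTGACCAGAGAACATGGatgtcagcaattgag
Neither of the listed Mecom promoter windows held any of the 3 motifs, nor did that of Hlf. Of the remaining windows that of Cd48 held 1 RUNX and 1 ETS match, that of Slamf1 2 ETS matches, that of Cd34 1 ETS match and that of Meis1 1 RUNX match.

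**Figure D2:**
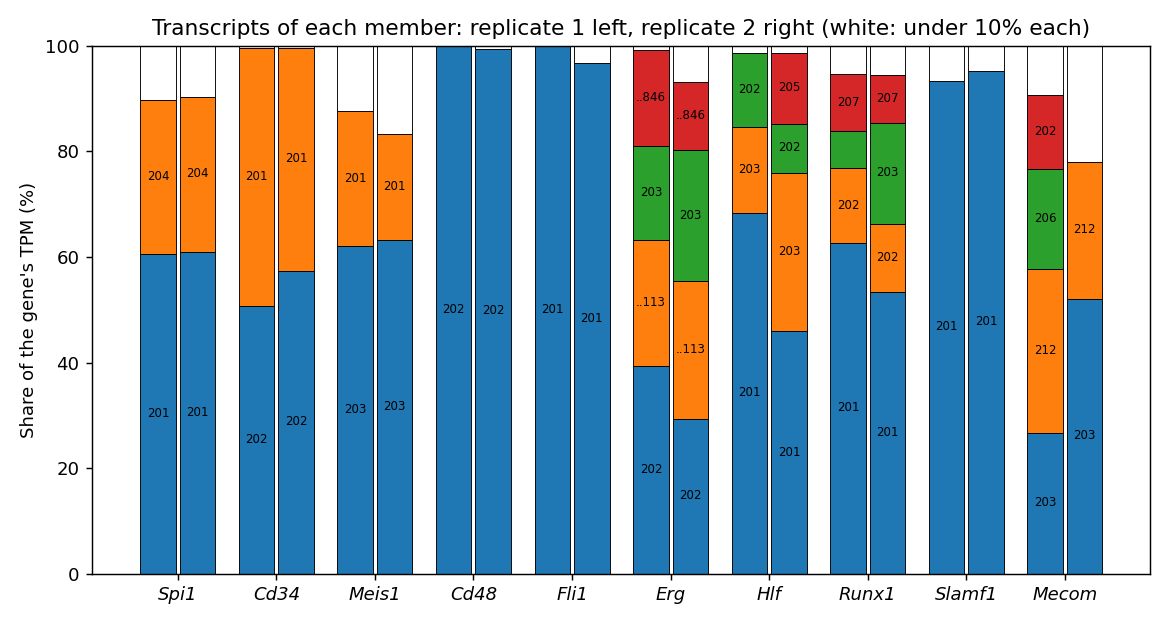
Share of each member's TPM on its transcripts of at least 10% in either library, replicate 1 left and replicate 2 right, labelled by the number after the gene name or by the last digits of the identifier, with the remainder in white. Cd48, Fli1 and Slamf1 have a leading transcript above 93%, Cd34 is split between 2 forms, and the leader of Mecom differs between the libraries.

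**Figure D3:**
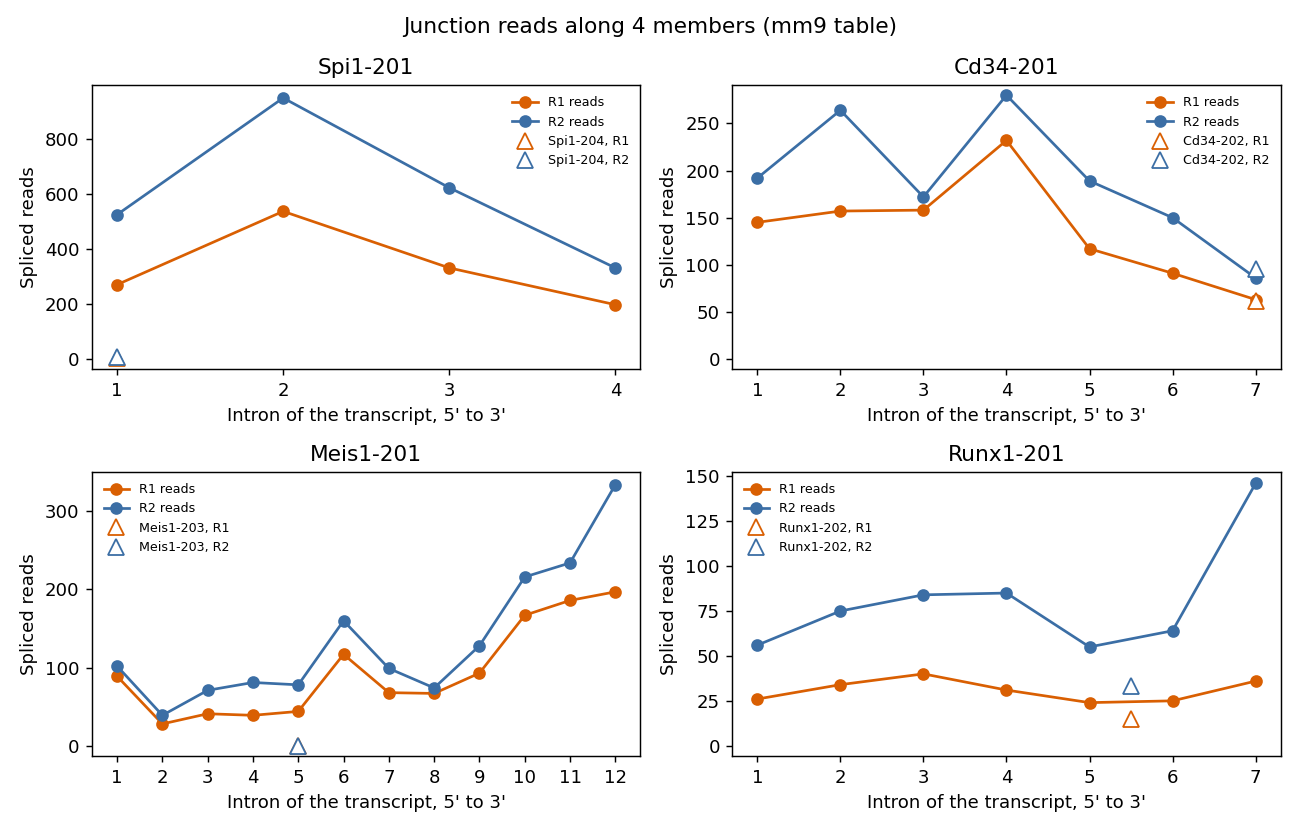
Spliced reads on each intron of 4 transcripts, 5′ to 3′, in R1 and R2 of the mm9 junction table, with triangles for the junction of a competing transcript (Spi1-204, Cd34-202, Meis1-203 and Runx1-202) and the 383 reads of the shifted Meis1 junction drawn at the intron of the same length. The triangle of Cd34-202 lies on the line, those of Spi1-204 and Meis1-203 lie at 10 reads in all and at none, and Meis1 reads are highest at the 3′ end.

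Over all members, 101 junctions had at least 5 reads, and 13592 of their 14184 reads (95.8%, 95.5 to 96.1) were on junctions of ENSEMBL release 65. Cd34 and Mecom had no unlisted junction of that size, and the lowest share was that of Meis1, 85.7%, through the 4-base shift. Annotated coding transcripts held 84.4% of the members' summed TPM in replicate 1 and 84.0% in replicate 2, the lowest by TPM being Meis1 with 36.7% and 34.0%. That value rests on the share given to Meis1-203, whose own first intron had no read. By counts the coding share of Meis1 was 52.5% and 50.5%. Erg was lowest by counts, at 38.8% and 43.8%, with its transcripts that are not in GENCODE M21 left out of the coding share. The mm9 gene table, whose replicates are also not tied to the libraries, kept Spi1 highest (RPKM 4.33 and 4.87) and Mecom lowest (0.287 and 0.396), and its order over the 10 members had a Spearman coefficient of 0.952 with TPM. Genes overlapping the exons of members on the opposite strand reached at most 0.06 TPM in replicate 1 and 0.04 TPM in replicate 2 (Gm16141, at Meis1), and the libraries were stranded per the labels. Gm37818, an unclassified locus on the same strand that overlaps an exon of Meis1, had 0.34 and 0.31 TPM.

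The mm9 contigs, stretches of continuous signal for both libraries together, were analysed for 8 members, and those at Runx1 and Erg were not analysed here. The level given is the authors' value, for contigs with a deposited significance value of at most 0.1. On the sense strand the highest exon contig was that of Cd34, at 10.8, and intron contigs had medians between 0.068 for Mecom and 0.1 for Cd48. Meis1 had 75 such intron contigs over 56596 bases with a median of 0.078, against 0.888 for its exon contigs. Opposite-strand contigs numbered 6 in all, at Cd48, Fli1, Hlf and Meis1, and reached 0.618 over 38 bases in Hlf.

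The libraries were then compared gene by gene, with ratios given as replicate 1 over replicate 2 after TMM scaling of counts. Of the members 6 of 10 differed beyond counting error (two-sided exact conditional binomial test, Benjamini-Hochberg adjusted over 18572 genes at 0.05), against 40.3% of all genes tested, and nothing particular to the members is read from 10 genes against that background. The members called higher in replicate 2 were 4 of 10, against 19.9% of all genes. The test sets these libraries against each other, with counting error alone, and says nothing of conditions. With edgeR's negative binomial exact test at the dispersion of this pair (biological coefficient of variation 0.191), 0 members and 471 genes were called, and 0 members and 1098 genes had an unadjusted p under 0.05.

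The 4 members lower in replicate 1 were Cd48 (log2 ratio -0.35, 95% counting interval -0.50 to -0.20, exact binomial adjusted p = 1.7e-05), Runx1 (-0.31, -0.41 to -0.20, 1.51e-08), Spi1 (-0.20, -0.27 to -0.12, 6.22e-07) and Fli1 (-0.16, -0.28 to -0.04, 0.0224). Cd34 (0.11, 0.03 to 0.19, exact binomial adjusted p = 0.0277) and Meis1 (0.13, 0.04 to 0.22, 0.0149) were higher in replicate 1 by scaled counts. Neither was higher in TPM, because TPM without TMM scaling was shifted by -0.14 on the log2 scale over genes with at least 100 counts. Both calls were lost when library totals replaced TMM, with ratios of 0.05 for Cd34 and 0.07 for Meis1, and those of Cd34 and Fli1 were lost without the filter on low counts. Erg (-0.10), Hlf (-0.10), Slamf1 (0.01) and Mecom (0.12) did not pass, and their intervals reached from -0.25 to 0.04, from -0.21 to 0.01, from -0.16 to 0.17 and from -0.09 to 0.33. The median ratio of the 10 members was -0.10, against 0.00 over all genes tested.

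**Figure D4:**
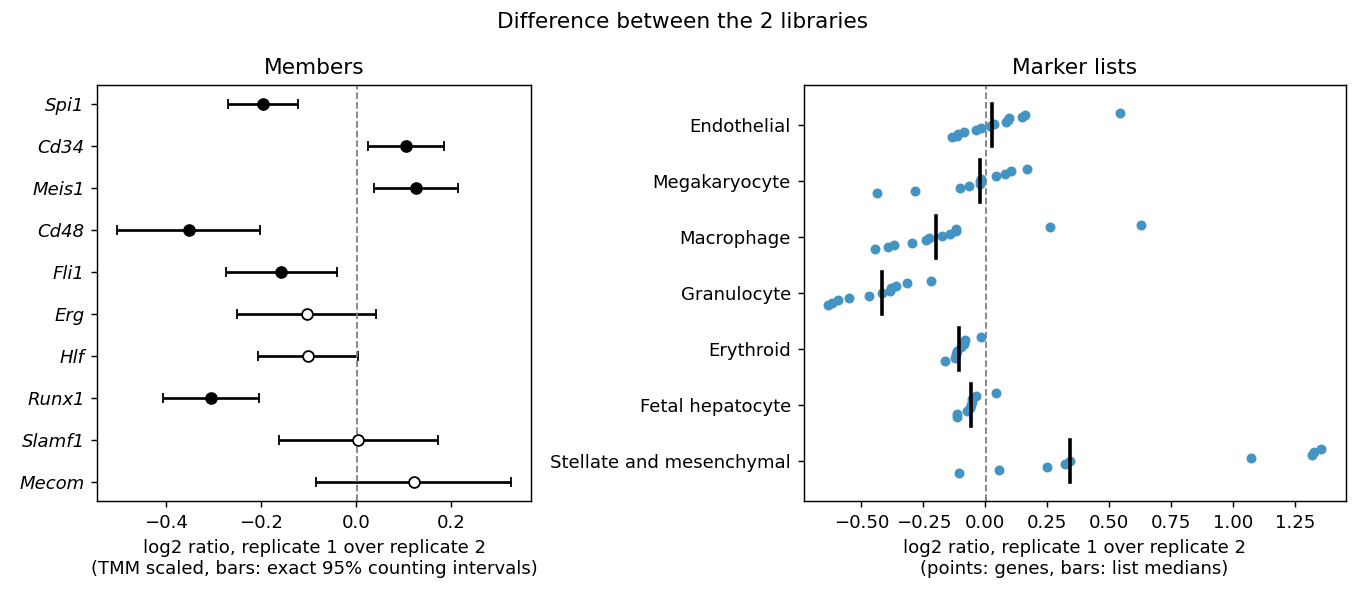
Left, log2 ratio of each member, replicate 1 over replicate 2, with exact 95% counting intervals and filled points where the exact binomial test passed; right, the same ratio for genes of 7 marker lists with list medians as bars and the median of all genes dashed. Cd48, Runx1, Spi1 and Fli1 lie left of the line, as do all 11 granulocyte genes.

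Of the marker lists of cell types that share these genes, the granulocyte and macrophage lists moved between the libraries, while the endothelial and megakaryocyte lists divided. Among all genes tested 40.3% were called in either direction, and 19.9% were called lower in replicate 1. All 11 granulocyte genes tested were lower in replicate 1 (median log2 ratio -0.42, summed level 1370 TPM in replicate 1 and 2000 TPM in replicate 2), and Elane, a neutrophil granule protease, had 38.1 and 63.7 TPM. Of 12 macrophage genes 10 were lower and 1 was higher in replicate 1 (median -0.20, summed 204 and 254 TPM), with the receptor Csf1r at 8.16 and 11.9 TPM and Marco, a scavenger receptor, on the other side at 28.5 and 26.4 TPM. The 14 endothelial genes divided, with 5 higher and 3 lower (median 0.03, summed 150 and 160 TPM), and the endothelial cadherin Cdh5 had 9.35 and 9.31 TPM. The 11 megakaryocyte genes had 3 on each side (median -0.02, summed 465 and 511 TPM). No gene of these 4 lists was at 0. Of 10 lymphoid genes tested 2 were called lower and 0 higher in replicate 1 (median -0.098). The 5 mast cell and basophil genes tested had 1 on each side (median -0.045). All 8 erythroid genes (median -0.105) and 8 of 9 fetal hepatocyte genes (median -0.057) were lower in replicate 1. Of 9 stellate and mesenchymal genes 7 were higher and 1 was lower in replicate 1 (summed 176 and 125 TPM). The lower one was Reln, at 28.9 and 35.3 TPM. All 9 striated muscle genes, which are not genes of liver cells, were higher in replicate 1 (summed 122 and 15.7 TPM). The members lower in replicate 1 include the myeloid gene Spi1 and the white cell gene Cd48, and the part of other cell types in these differences was not tested.

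The wider stem and progenitor programme ranged over a broad span of levels. Of 28 further genes, 21 had at least 1 TPM in both libraries, and their median was 4.37 TPM in replicate 1 and 4.98 TPM in replicate 2. Lmo2, a bridging protein of the blood transcription complex that red cell precursors also use, was highest at 138 and 150 TPM. Gata3 was lowest at 0.28 and 0.32 TPM. Kit, the stem cell factor receptor, had 7.96 and 8.29 TPM, close to Cd34. Genes used for stem cells more narrowly were low: Procr (EPCR) had 0.88 and 0.80 TPM, Fgd5 had 1.35 and 1.60 TPM, and the Hox genes Hoxa9 and Hoxb4 had 0.50 and 0.45 TPM and 0.61 and 0.51 TPM. Over all genes tested 40.3% were called between the libraries, and 19.9% were called lower in replicate 1. Nothing particular to the programme is read from the counts that follow. Between libraries 6 of the 28 were called higher and 9 lower in replicate 1, with a median log2 ratio of -0.02. The extremes by scaled counts were Hoxa9 (log2 ratio 1.05, exact binomial adjusted p = 4.75e-07) and Cd27, a lymphoid and progenitor receptor (-0.53, 0.031). Both are low, with 127 and 98 counts for Hoxa9 and 69 and 159 for Cd27. The TPM of Hoxa9, 0.50 and 0.45, differed far less between the libraries than its scaled counts. What produced this gap was not tested.

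Relatives of the members were measured beside them. Their calls stand against 40.3% of all genes called in either direction and 19.9% called lower in replicate 1. Nothing particular to a family is read from its count. Cbfb, which pairs with Runx1, had 4.73 TPM in replicate 1 and 6.63 TPM in replicate 2 and, like Runx1, was lower in replicate 1 (log2 ratio -0.36, exact binomial adjusted p = 6.93e-15). Runx2 and Runx3 stood below Runx1, at 0.54 and 0.53 TPM and at 0.84 and 1.02 TPM. Meis2, a TALE homeobox gene like Meis1, had 2.14 and 1.75 TPM and was higher in replicate 1 (log2 ratio 0.54, exact binomial adjusted p = 1.8e-11). Pbx2, which encodes a homeodomain partner of Meis proteins, had 19.3 and 19.4 TPM. Of 14 further ETS genes 13 had enough counts to test, and 6 were lower and 0 higher in replicate 1. Spic, a close relative of Spi1 that marks iron-recycling macrophages, was furthest down at -0.66 with 2.88 and 5.02 TPM. Elf2 was the highest of these at 18.4 and 20.8 TPM, in the range of Spi1. Of 7 further SLAM family genes matched, 2 were lower in replicate 1 (Cd84 and Ly9), and Cd84, at 2.93 and 4.13 TPM, was the only one above Slamf1 in both libraries. Podxl, the CD34 relative podocalyxin, had 7.36 and 8.04 TPM, next to Cd34, and Prdm16, the relative of Mecom, had 0.53 and 0.36 TPM and was higher in replicate 1 (log2 ratio 0.33, exact binomial adjusted p = 0.0159).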

How the data were processed

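Gene and transcript expected count, TPM and FPKM values were made by the authors on mm10 with the GENCODE M4 annotation, per the file headers and notes deposited beside them, from an alignment to the transcriptome. No source used here names the aligner or the quantifier. The deposited percent of a gene's TPM on each transcript, also made by the authors, was recomputed from TPM. The posterior SD of a count and the significance value of junctions and contigs are score values deposited by the authors. Gene RPKM, junction read counts and contig signal were deposited on mm9 against ENSEMBL release 65, with replicates not tied to the libraries, and positions were not converted between builds. The mm9 transcript table and the Cufflinks tables were not used.

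Symbols, biotypes and GRCm38 positions came from GENCODE M21, matched by identifier for 42462 of 43346 genes. Members and lists were chosen with earlier results of these data known. The 10 members are described in full, and other genes as counts, ranges and examples (the highest, the lowest and the extremes of the library ratio) or as relatives of a member, some of them chosen after their values were seen. Some listed relatives are not reported here. Transcripts are named from 10% of a gene's TPM.

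Expected counts were rounded, scaled by TMM (edgeR 4.0.16, R 4.3.3), filtered at 10 counts in total and compared by an exact conditional binomial test, two-sided (scipy 1.17.1). Tested on simulated data for this comparison, with 18572 genes, it found 99 of 100 genes changed 2-fold and called 15 of 18372 unchanged genes. The simulated counts held counting error alone (Poisson), which is what the test assumes, so few false calls were fixed in advance. They give no error rate for these libraries, which varied by more than counting error (biological coefficient of variation 0.191). The mouse genes held 97174777 counts in replicate 1 and 149348514 in replicate 2. Shares of junction reads carry exact Clopper-Pearson 95% intervals, over junctions of at least 5 reads. Intervals cover counting error only. Inclusion of an exon is the mean of its flanking reads over that mean plus the skipping reads. Junctions were matched to GENCODE M21 by intron length within the gene. Promoter windows came from RefSeq. Alternatives were other scalings (DESeq2 1.42.0 size factors, library totals), filters, pseudocounts, thresholds and units, a negative binomial exact test, and each replicate left out. The dispersion of the negative binomial test was estimated from the same 2 libraries, taken as replicates of each other. Their differences are therefore part of its error term, so the absence of a call cannot show that a member did not differ.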

Additional observations from a re-analysis of the deposited data

How the results depend on the processing

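The median level of the members, 2.78 TPM, was 3.32 as FPKM, 0.989 as mm9 RPKM and 4.92 TPM as a mean in place of a median, and 2.42 to 3.14 TPM with either replicate left out. Of the 6 members called between libraries 3 remained in number at a threshold of 0.01 (Spi1, Cd48 and Runx1) and 0 with the negative binomial exact test, which called 471 genes in place of 7486. Without the count filter 4 were called, with Cd34 and Fli1 lost, and with library totals 5, with Cd34 and Meis1 lost and Hlf gained. The log2 ratio of Slamf1, never called, changed sign to -0.051 with library totals, and on unscaled TPM those of Cd34 (-0.03), Meis1 (-0.01), Mecom (-0.18) and Slamf1 (-0.155) were negative. The members' median ratio, -0.10, was -0.29 on unscaled TPM with a pseudocount of 0.1. The median share of the leading transcript, 59.4% of TPM, was 75.6% of counts, and 59.2 to 62.3% with either replicate left out. The coding share, 84.2% of the members' TPM, was 85.8% of counts. The share of junction reads on listed junctions, 95.8%, was 94.8% from 2 reads, 96.8% from 20 reads, 95.4 to 96.1% with either replicate left out, and 98.5% when introns of the same length within 10 bases counted as listed, an alternative chosen after seeing the data. Of the 60 alternative values of the members' ratios, unscaled TPM not among them, 45 kept direction and side of the threshold, 13 lost the call, 1 gained it and 1 changed sign. No paired analysis was possible because both libraries belong to 1 group. Depth limits the low members most: Mecom rests on 329 counts in replicate 1 and 483 in replicate 2, and its start sites on 10 reads or fewer.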
